A study of Homo sapiens with 3 samples.

Results

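The genes described here are the 50 listed genes that run along human chromosome 18 from USP14, near the end of the short arm (18p), to MIB1, just past the centromere on the long arm (18q). The list was chosen by measured values: earlier results on these same 3 arrays showed the stretch lower in the resistant cells. The values below therefore describe the list and are no test of it. Of the 50 genes, 45 lie on 18p and 5 (among them ESCO1, SNRPD1, ABHD3 and MIB1) lie on proximal 18q, so the name "short arm genes" holds for all but those 5. A probe set, a group of short probes that reads one transcript, names 47 of the 50, and 123 of the 54675 probe sets on the array belong to them. Of these 47 genes, 38 had a signal above the floor of 76.9 intensity units on at least 1 array of each comparison and were compared, among 19775 genes measured in all. The other 9 (COLEC12, CLUL1, EMILIN2, MYOM1, EPB41L3, ARHGAP28, LAMA1, APCDD1 and CIDEA) were not above the floor on any array, and 3 listed genes are not analysed here.

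RNA came from MHCC97Low (97Low), a human metastatic hepatocellular carcinoma cell line, and from 2 sublines generated from it, cisplatin-resistant MHCC97L/CisR (C8) and doxorubicin-resistant MHCC97L/DoxR (D5). Cisplatin crosslinks DNA, and doxorubicin traps topoisomerase II on DNA. The sublines are called CisR and DoxR below. All 3 were kept in DMEM with FBS, and the treatment label of each reads as none, so no drug was on record at harvest. The labels give no drug dose, selection time or clone number, and each subline is represented by 1 RNA sample on 1 U133 Plus 2.0 array from Affymetrix. Without replicates a difference cannot be set against a spread between cultures, nothing could be tested, and precision is limited by the small number of arrays. The design asked for the genes that separate each resistant subline from its parent. Both of those comparisons use the same parental array and are therefore not independent.

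The short arm of chromosome 18 carries no single pathway. It holds neighbours with unrelated tasks, among them thymidylate synthase, a kinetochore subunit, myosin light chains, a Src-family kinase, nuclear pore and centrosome proteins, proteasome factors and a mechanosensitive ion channel. Most of these genes are read from promoters of their own, and many serve tasks that all dividing cells share.

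The 3 arrays had similar signal distributions, with a median signal of 73.3 to 79.2, 11879 to 12107 genes above the floor, and a trimmed mean of 500.1 on each. Keratins of hepatoma cells were bright on all 3, with KRT8 between 23132 and 26856. Of 10 hepatocyte and hepatoma markers analysed, 8 were compared in the CisR array and 5 were at least 2-fold lower there, with a list median of -1.51 on the log2 scale against parental. In the DoxR array 7 were compared, with a list median of -0.39 and 4 of them below parental. Albumin (ALB) read 1545 on the parental array, 3.17 on the CisR array, under the floor, and 3115 on the DoxR array. Transferrin (TF) read 4925, 234 and 404 in the same order, so the markers did not move together in the DoxR array. Of 4 leukocyte markers, PTPRC, CD14 and LYZ were under the floor on all 3 arrays, and CD3E lay near it at 49.7, 86.6 and 78.7 on the MHCC97Low, CisR and DoxR arrays. Of 4 endothelial markers, VWF and CDH5 were under the floor on all arrays, while PECAM1 read 1052, 802 and 827 and KDR read 199.7, 285 and 189.8. Of 6 fibroblast markers, COL1A2, COL3A1 and PDGFRB were under the floor on all arrays and DCN was near it. COL1A1 read 309, 511 and 242. LUM read 258, 2632 and 1167, although its other probe set gave log2 differences of 0.07 and 0.00. The part of these marker shifts in the values of the 18p genes was not tested.

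Upstream sequences were taken from RefSeq (GRCh38.p14), as the 250 bases before a gene's start, read 5′ to 3′ on the gene's own strand. Capitals mark matches, on either strand, to the GC box (GGGCGG), the CCAAT box (CCAAT), the TATA box (TATAAA), the E-box (CACGTG) and the cyclic AMP response element or CRE (TGACGTCA), none of which contains another. SPIRE1 and PIEZO2 are shown because they lay farthest from the other listed genes, TWSG1 because it followed SPIRE1 in the DoxR array, and PSMG2 and NDC80 because each has a gene on the opposite strand whose start lies close by.
SPIRE1 chr18:12656733-12656982, minus strand: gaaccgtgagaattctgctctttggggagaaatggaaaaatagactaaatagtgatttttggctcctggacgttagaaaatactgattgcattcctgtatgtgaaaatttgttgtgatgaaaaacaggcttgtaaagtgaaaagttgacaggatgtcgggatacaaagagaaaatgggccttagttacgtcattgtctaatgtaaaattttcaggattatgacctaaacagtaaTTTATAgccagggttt
PIEZO2 chr18:11149570-11149819, minus strand: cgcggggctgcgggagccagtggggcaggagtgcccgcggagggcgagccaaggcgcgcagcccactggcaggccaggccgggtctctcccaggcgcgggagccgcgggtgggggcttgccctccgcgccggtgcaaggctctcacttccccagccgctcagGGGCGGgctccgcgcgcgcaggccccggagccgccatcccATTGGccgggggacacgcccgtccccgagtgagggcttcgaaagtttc
TWSG1 chr18:9334523-9334772, plus strand: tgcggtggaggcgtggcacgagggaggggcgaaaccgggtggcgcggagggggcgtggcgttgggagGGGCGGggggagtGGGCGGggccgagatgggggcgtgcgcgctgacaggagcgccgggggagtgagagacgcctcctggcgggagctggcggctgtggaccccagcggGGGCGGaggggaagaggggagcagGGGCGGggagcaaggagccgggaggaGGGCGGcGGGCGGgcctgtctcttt
PSMG2 chr18:12702792-12703041, plus strand: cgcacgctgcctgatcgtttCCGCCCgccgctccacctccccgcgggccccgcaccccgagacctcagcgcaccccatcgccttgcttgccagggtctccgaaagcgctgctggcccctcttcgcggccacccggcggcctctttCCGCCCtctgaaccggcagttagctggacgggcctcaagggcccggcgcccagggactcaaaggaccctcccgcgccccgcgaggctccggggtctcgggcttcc
NDC80 chr18:2571307-2571556, plus strand: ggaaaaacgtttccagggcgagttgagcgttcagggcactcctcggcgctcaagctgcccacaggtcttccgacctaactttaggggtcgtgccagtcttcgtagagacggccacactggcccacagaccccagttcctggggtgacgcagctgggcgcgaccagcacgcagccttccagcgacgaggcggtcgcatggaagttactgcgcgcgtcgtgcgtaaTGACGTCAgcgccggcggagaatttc

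The SPIRE1 window held 4 CpG dinucleotides and 36.0% G and C, with 1 TATA box match, and is the outer of 2 SPIRE1 starts in the table. Which start these cells use was not measured. The PIEZO2 window held 29 CpG dinucleotides and 76.8% G and C, with 1 GC box and 1 CCAAT box. The TWSG1 window held 27 CpG dinucleotides, 77.2% G and C and 6 GC boxes, the most of the 5 shown. Over the 78 upstream windows of the 44 listed genes in the table, the median was 24.5 CpG dinucleotides and 68.8% G and C, beside 11.0 and 58.0% over all 35116 windows. A GC box stood in 60.3% of the listed genes' windows and in 42.6% of all windows, and a CCAAT box in 19.2% and 32.0%. For the TATA box the shares were 7.69% and 10.7%, for the E-box 6.41% and 6.34%, and for the CRE 3.85% and 1.65%. A match is a description of letters, not of a factor's binding.

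In the CisR array, all 38 compared genes were below their parental value, with a median log2 difference of -0.94, or 52.0% of parental. Of the 38, 17 (44.7%) were lower by at least 2-fold and none was higher by 2-fold. Over all 12710 genes compared, 2.58% were lower and 2.83% higher by at least 2-fold, 47.8% were below parental, and the median difference was 0.02. Since the genes were listed from this contrast, those shares stand beside the count as background and carry no support for it. At 1.5-fold, 33 of the 38 were lower, beside 8.25% of all genes. The 35 genes above the floor on all 3 arrays had a median of -0.96, and 16 of them were lower by 2-fold. Several calls at 2-fold depended on the setting. ANKRD12 (-0.91), CEP192 (-0.69) and SMCHD1 (-0.59) lost theirs with the floor at the 75th percentile. USP14 (-0.89) and CHMP1B (-0.93) did so without probe sets of lower specificity, and MYL12A (-0.90) and PTPN2 (-0.66) with the median over all probe sets. Other genes gained a call: YES1 (down to -1.20) and PTPRM (-1.10) under other probe set choices. LDLRAD4 (down to -1.68) and RAB31 (down to -1.02) gained one with a lower floor or none.

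The DoxR array gave the same direction at a smaller size. All 38 genes were again below parental, with a median log2 difference of -0.39, or 76.4% of parental, but only SPIRE1 (2.63% of the 38) was lower by 2-fold. Over all 12605 genes compared, 2.74% were lower by 2-fold and 49.6% were below parental. At 1.5-fold, 10 of the 38 were lower, beside 8.59% of all genes. A parental value above both sublines was found for 33.2% of all genes compared in both. Set directly against each other, the DoxR array was above the CisR array for 34 of the 38 genes, beside 48.7% of all genes, with a median of 0.61. Of these, 3 genes (PIEZO2, ANKRD12 and IMPA2) were higher by at least 2-fold in the DoxR array, beside 3.05% of all 12604 genes.

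**Figure D1:**
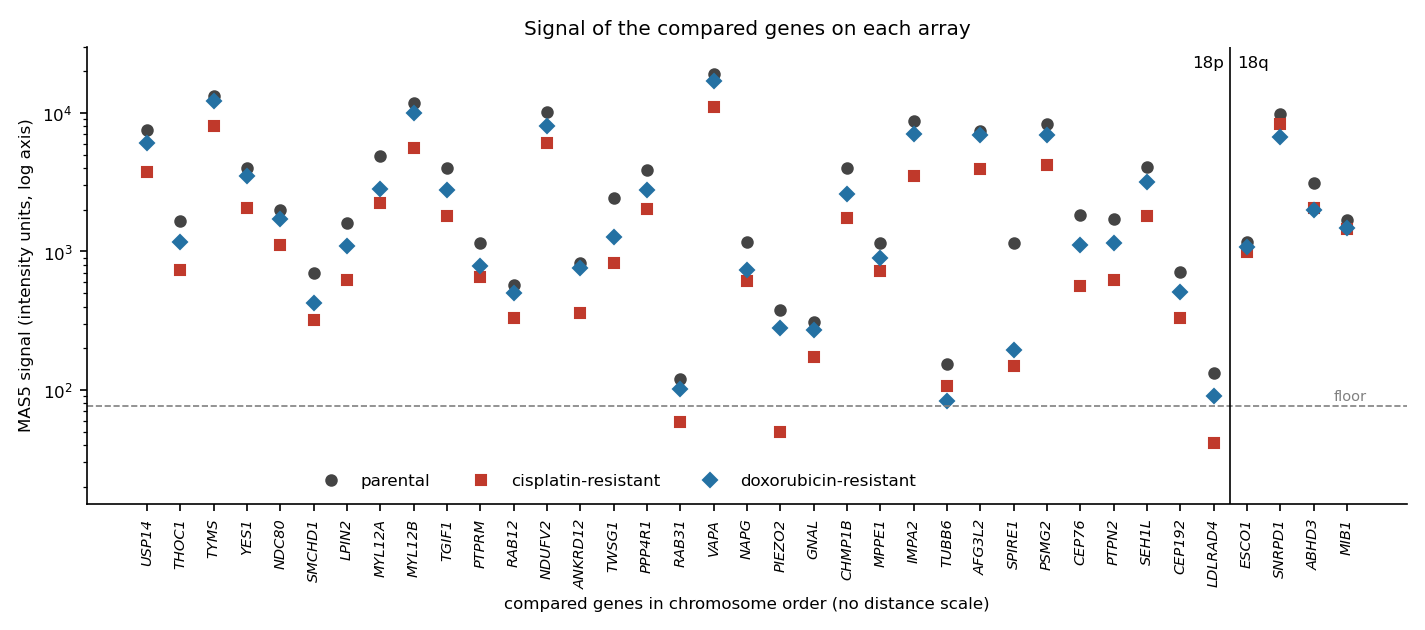
MAS5 signal (intensity units, log axis) of 37 of the 38 compared genes in chromosome order, 1 symbol per array: circle parental, square cisplatin-resistant, diamond doxorubicin-resistant; the dashed line is the floor of 76.9 and the vertical line separates 18p from 18q. The circle is the highest symbol for every gene, the square is the lowest for 32 of the 33 genes on 18p (TUBB6 is the exception), and the symbols nearly coincide for ESCO1 and MIB1.

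The size of the difference was not the same on both sides of the centromere. The 33 compared genes of 18p had a median of -1.0 in the CisR array (49.9% of parental), ranging from -2.96 to -0.52, and all 17 genes lower by 2-fold were among them. The 5 genes of proximal 18q had a median of -0.23 (85.5% of parental), ranging from -0.60 to -0.18. The 18p and 18q ranges overlapped only between TUBB6 (-0.52) and ABHD3 (-0.60). The DoxR medians were -0.42 on 18p and -0.22 on proximal 18q, and the 18q range lay inside that of 18p. Between the sublines, 32 of the 33 genes of 18p were higher in the DoxR array (median 0.63), while the 5 genes of proximal 18q had a median of -0.05.

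As an SD taken from the median absolute deviation, the listed genes of 18p had a spread of 0.286 in the CisR array, beside 0.368 over all compared genes. The listed genes were chosen by such values, and the 15 other compared genes of 18p had a wider spread of 0.578, from -1.55 to -0.06. Signal affects such spread, so the 15 listed genes of 18p in the brightest of 3 equal groups of compared genes were also taken alone. They had a median of -0.97 and a spread of 0.217, beside 0.276 for all genes of that brightness. The same 15 genes in the DoxR array had a median of -0.30 and a spread of 0.128, beside 0.279. All 33 listed genes of 18p had a wider DoxR spread of 0.281, beside 0.370 over all compared genes. The 17 other compared genes of 18p had a DoxR spread of 0.407, wider than that of all genes. Of the 38 genes, 2 (SPIRE1 and, as a bound, PIEZO2) were more than 2-fold from their median in the CisR array. That share is close to the 5.30% of all genes that lay that far from their own median, so it does not set the list apart. In the DoxR array 1 of the 38, SPIRE1, lay that far, beside 5.72% of all genes.

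SPIRE1, which nucleates actin filaments and works with formins in vesicle transport, had the lowest value of the list in both sublines. Its signal was 1155 on the parental, 149 on the CisR and 193 on the DoxR array. That is 7.76-fold and 5.98-fold below parental, with both sublines far under the parental value and near each other. A second SPIRE1 probe set was 11.2-fold and 10.4-fold lower. The remaining pair lay under the floor in both sublines and gave bounds of at least 7.19-fold and at least 1.61-fold. Against the median of its 10 nearest compared genes, SPIRE1 differed by -1.91 in the CisR and -2.23 in the DoxR array, so most of its difference was not shared with its neighbours.

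PIEZO2, a mechanically gated cation channel, was more than 2-fold below parental in the CisR array alone. It read 377 on the parental, 50.0 on the CisR and 282 on the DoxR array. The CisR value lay under the floor, so PIEZO2 was at least 4.90-fold lower there and 1.34-fold lower in the DoxR array. Its other measured probe set gave at least 4.77-fold and 1.88-fold. Relative to its 10 nearest compared genes PIEZO2 differed by -1.41 and -0.01. By the probe set representing it (-0.42), it thus sat at the level of its neighbours in the DoxR array. The other measured probe set was lower there, at -0.91. The scavenger receptor COLEC12, CLUL1, EMILIN2 and the laminin chain LAMA1, grouped with it as surface and matrix genes, were under the floor on all arrays.

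Of 8 compared genes of mitosis, the centrosome, the nuclear pore and chromatin, 6 were lower by 2-fold in the CisR array, beside 44.7% of the 38 and 2.58% of all genes, with a median of -1.13. Their DoxR median was -0.42, and none was lower by 2-fold there. CEP76, a centriolar protein that restrains centriole duplication, read 1831, 563 and 1109 on the MHCC97Low, CisR and DoxR arrays, 3.25-fold and 1.65-fold below parental. Its other probe set was 2.48-fold and 1.36-fold lower. ANKRD12, a nuclear protein that restrains nuclear receptor coactivators, read 829, 358 and 759 in the same order. It was thus 2.32-fold lower in the first subline and 1.09-fold lower in the second. Its other probe sets were 2.26-fold, 2.61-fold and 1.37-fold lower in the CisR array, and differed by -0.11, 0.17 and -0.18 in the DoxR array. Between the sublines they gave 1.07, 1.56 and 0.27, so the 2-fold calls for ANKRD12 depended on the probe set. SEH1L, a subunit of the NUP107 nuclear pore complex, read 4091, 1799 and 3193, or 2.27-fold and 1.28-fold lower. TGIF1, a homeodomain repressor of TGF-beta responses, read 4003, 1819 and 2772. SMCHD1, a chromatin protein needed for X inactivation, read 704, 322 and 425. A pair of other SMCHD1 probe sets with all 3 signals above the floor were also past 2-fold in the CisR array, but differed by -0.43 and -0.03 in the DoxR array, beside -0.73 for the first, so the size of the DoxR difference depended on the probe set. CEP192, a scaffold for centrosome maturation, read 711, 328 and 506, and its DoxR value lay between the other arrays. NDC80, the kinetochore subunit that binds microtubules, read 1996, 1110 and 1724, short of 2-fold in both sublines. ESCO1, a cohesin acetyltransferase on proximal 18q, read 1168, 999 and 1072 and so stayed near parental in both.

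Among cytoskeletal genes, 3 of the 4 compared were lower by 2-fold in the CisR array, beside the same 44.7% and 2.58%. MYL12A and MYL12B encode regulatory light chains of nonmuscle myosin II and lie side by side. MYL12A read 4874, 2240 and 2811 on the MHCC97Low, CisR and DoxR arrays, and MYL12B read 11796, 5613 and 10072. The neighbours were alike in the CisR array (2.18-fold and 2.10-fold lower) and unlike in the DoxR array (1.73-fold and 1.17-fold lower). Near-identical copies can share probes, and a probe set named for both gave -0.63 and -0.20 in log2 units, a smaller difference than either gene alone in the CisR array, so the split between them is uncertain. TUBB6, a beta-tubulin, read 154, 107 and 82.5, the single listed 18p gene that was lower in the DoxR than in the CisR array. Its signals are close to the floor.

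Enzyme genes had a median of -0.73 in the CisR and -0.32 in the DoxR array, with 7 of 9 compared. IMPA2, an inositol monophosphatase, read 8703, 3484 and 7086 on the MHCC97Low, CisR and DoxR arrays, and LPIN2, a phosphatidate phosphatase, read 1603, 621 and 1088. These were the pair past 2-fold in the CisR array, at 2.50-fold and 2.58-fold lower. IMPA2 was within 1.23-fold of parental in the DoxR array, while LPIN2 stood 1.47-fold below it. TYMS, the thymidylate synthase that makes the DNA precursor dTMP and is the target of fluoropyrimidines, read 13217, 8041 and 12302. It was 1.64-fold lower in the CisR and 1.07-fold lower in the DoxR array. The complex I subunit NDUFV2, the mitochondrial protease AFG3L2, the phosphoesterase MPPE1 and the lipase ABHD3 were between 1.51-fold and 1.89-fold lower in the CisR array. The lipid droplet protein CIDEA was under the floor on all arrays.

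Kinases, phosphatases and signalling genes had a median of -0.85 and -0.48 in the CisR and DoxR arrays, with 9 of 10 compared. TWSG1, a secreted modulator of bone morphogenetic proteins, read 2448 on the parental, 822 on the CisR and 1275 on the DoxR array. Both sublines were well under parental, by 2.98-fold and 1.92-fold, and the second TWSG1 probe set gave 3.23-fold and 2.30-fold. PTPN2, a phosphatase of JAK and STAT proteins, read 1714, 620.3 and 1142, or 2.76-fold and 1.5-fold lower. Its other 3 measured probe sets were smaller in difference, from -0.94 to -0.12 in the CisR array (with 2 of them bounds), and in the DoxR array ran from -0.10 to 0.14. The size for PTPN2 therefore rests on 1 probe set. YES1, a Src-family kinase, read 4027, 2066 and 3481, just short of 2-fold in the CisR array. Its other measured probe set was 2.30-fold lower there, so the call for YES1 depended on the probe set. The receptor phosphatase PTPRM, the phosphatase subunit PPP4R1, the G protein subunit GNAL and LDLRAD4, a restrainer of TGF-beta signalling, were between 1.71-fold and 1.89-fold lower in the CisR array, a lower bound for LDLRAD4, which was under the floor there. The Wnt inhibitor APCDD1 was under the floor on all arrays.

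MIB1, a ubiquitin ligase for Notch ligands, is a signalling gene of proximal 18q. It read 1684 on the parental, 1448 on the CisR and 1482 on the DoxR array. MIB1 stayed within 1.16-fold of parental in both sublines, and with ESCO1 and SNRPD1 it was among the 4 genes nearest to parental in the CisR array. Other probe sets lay farther from parental: one of MIB1 was 1.58-fold and 1.57-fold lower in the CisR and DoxR arrays, another was 2.02-fold lower in the DoxR array, and one of SNRPD1 was 1.51-fold lower in the CisR array.

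Both proteasome genes, both RNA-processing genes and the 5 genes of vesicle traffic were lower as well. USP14, a deubiquitinase of the proteasome and the first gene of the stretch, read 7500, 3741 and 6107 on the MHCC97Low, CisR and DoxR arrays, and was 2.00-fold lower in the first subline. The proteasome assembly chaperone PSMG2 read 8306, 4226 and 6923, or 1.97-fold and 1.20-fold lower. The pair was thus close to alike in both sublines. THOC1, of the THO complex for RNA export, read 1666, 734 and 1173, while the spliceosomal Sm protein SNRPD1 on proximal 18q read 9770, 8339 and 6674. THOC1 was lowest in the CisR array. For SNRPD1 the order of the sublines depended on the probe set, since another one read 1579, 1047 and 1069. CHMP1B, of the ESCRT-III membrane-scission machinery, read 4006, 1748 and 2600. By the probe set representing each gene, it was the single traffic gene past 2-fold (2.29-fold in the CisR array). Its other probe set was 1.90-fold lower there. VAPA, an endoplasmic reticulum tether at membrane contacts, read 19248, 11057 and 16919. Another VAPA probe set was the one probe set of the list above parental in the CisR array (0.16 in log2 units), and it gave 0.62 in the DoxR array. The small GTPases RAB12 and RAB31 and the SNARE adaptor NAPG were between 1.55-fold and 1.90-fold lower in the CisR array, a lower bound for RAB31, which was under the floor there. Another RAB12 probe set, above the floor on all arrays, was 2.46-fold lower in the CisR and 2.73-fold lower in the DoxR array.

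Probe sets that did not represent their gene gave the same direction almost throughout. Of 48 such probe sets measured, for 26 genes, 47 were below parental in the CisR array, with a median of -0.90, and 18 were lower by 2-fold. For DoxR, 42 of 48 were below parental, with a median of -0.40, and 6 were lower by 2-fold. Over all named probe sets, 49.2% and 51.6% were below parental in the respective comparisons. Lower by 2-fold were 596 of 24005 measured in the CisR and 588 of 23774 in the DoxR comparison. Probe sets of 1 gene read the same RNA sample, so they repeat a measurement and are not replicates of a subline.

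**Figure D2:**
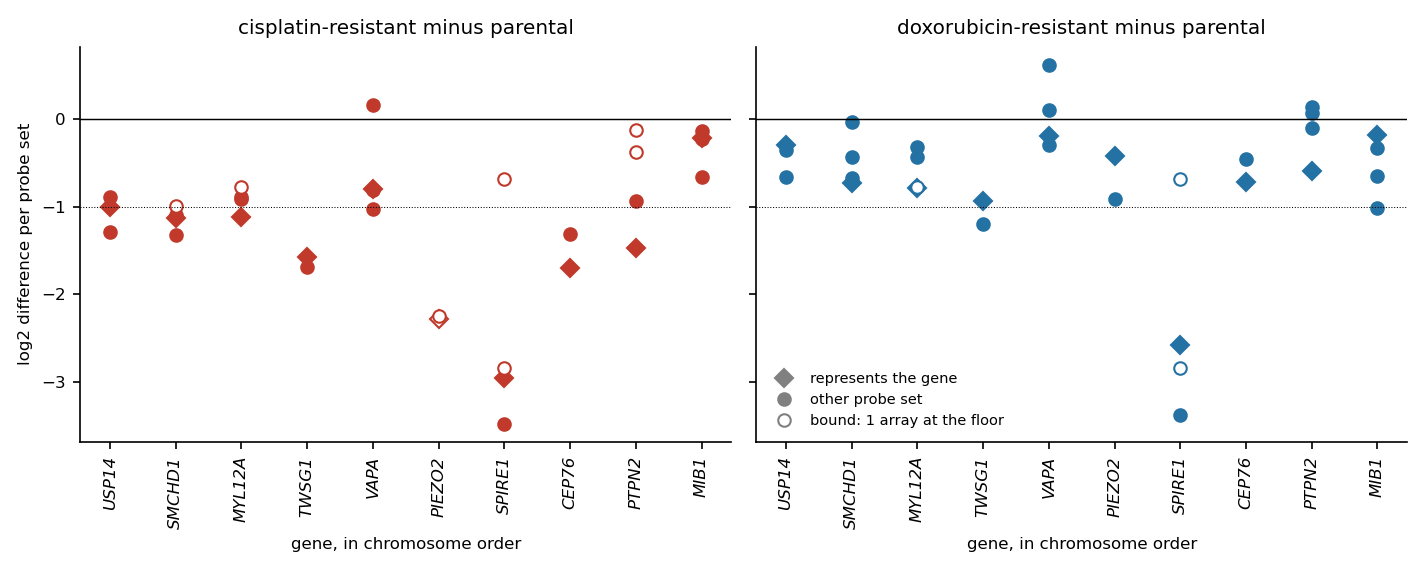
Log2 difference from parental of every measured probe set of 10 listed genes in chromosome order, in the cisplatin-resistant (left) and doxorubicin-resistant (right) array; diamonds represent the gene in the text, circles are its other probe sets, open symbols are bounds with 1 array at the floor, and the dotted line is 2-fold lower. SPIRE1 lies lowest in both panels and PIEZO2 only in the left one, and the probe set above 0 in the left panel belongs to VAPA (0.16).

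Neighbours that were not on the list were examined in the same stretch. On 18p, 15 other genes were compared in the CisR array, with a median of -0.75, and all 15 were below parental. Among them were the DNA and RNA methyltransferase METTL4, which read 646, 389 and 579 on the MHCC97Low, CisR and DoxR arrays, and the microtubule crosslinker MTCL1, which read 4327, 1587 and 3847. METTL4 and NDC80, whose starts lie 52 bases apart on opposite strands, differed by -0.73 and -0.85 in the CisR and by -0.16 and -0.21 in the DoxR array. CEP76 and PSMG2, whose starts lie 265 bases apart on opposite strands, stood at -1.70 and -0.97 in the CisR and -0.72 and -0.26 in the DoxR array. By these probe sets they were less alike. The other CEP76 probe set stood nearer to PSMG2, at -1.31 in the CisR and -0.45 in the DoxR array. For DoxR, 11 of 17 other genes on 18p were below parental, with a median of -0.16. Of these 17, 3 were lower by 2-fold, among them LINC00470 (-1.48) and LINC00667 (-1.04). The value for LINC00470 is a bound, since its DoxR signal of 49.5 was under the floor. Higher by 2-fold was 1 gene, the histone reader L3MBTL4, which read 46.7, 39.0 and 176. Its difference is also a bound, since its parental signal was under the floor.

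Past the centromere most of the listed genes stood nearer to parental than those of 18p in the CisR array, but the values were mixed and showed no clean step. In the CisR array FAM210A, MC2R and ZNF519, the last compared genes of 18p, differed by -1.55, -0.29 and -0.95, with MC2R near the floor. On the other side lay the unlisted gene GREB1L at 0.22, ESCO1 at -0.23 and, farther on, ABHD3 at -0.60. USP14 was the first chromosome 18 gene compared, so no value lies before it. At the other end, MIB1 (-0.22) was the last gene inside the stretch, and GATA6-AS1 (0.51) and GATA6 (0.10), a liver-bud and endoderm transcription factor, were the first outside it. The first 10 compared genes beyond MIB1 had a median of -0.42 in the CisR and -0.29 in the DoxR array. Of these 10, 7 were below and 3 above parental in the CisR array. Those below included NPC1 (-1.01), CABLES1 (-0.96) and TTC39C (-0.77).

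Over all of 18q beyond MIB1, values in the CisR array were mostly low. The 121 compared genes beyond MIB1 had a median of -0.64, with 105 below parental and 21 lower by 2-fold. In DoxR the 123 compared genes had a median of -0.10, with 68 below parental. A low median was thus not particular to 18p in the CisR array, and no test of the difference between the arms was possible.

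**Figure D3:**
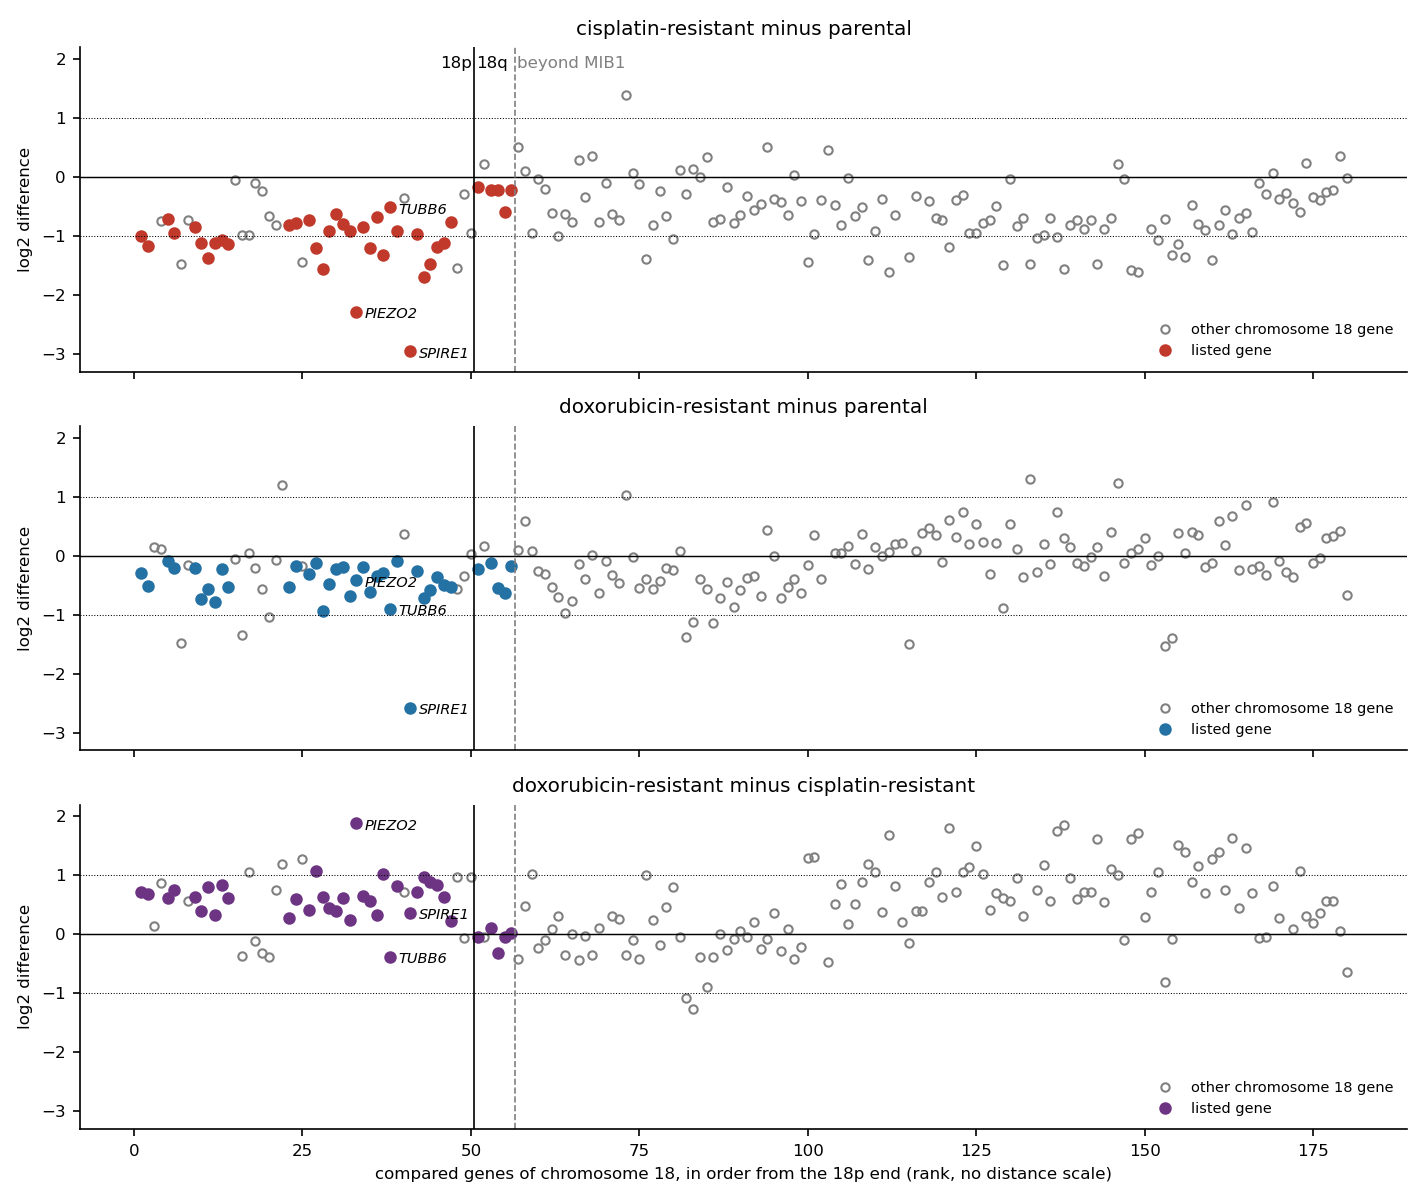
Log2 difference of each compared chromosome 18 gene, plotted by its rank along the chromosome with no distance scale, for cisplatin-resistant minus parental (top), doxorubicin-resistant minus parental (middle) and doxorubicin- minus cisplatin-resistant (bottom); filled points are the listed genes, open points other genes, the solid vertical line is the centromere and the dashed line marks MIB1. The 18p points gather around -1.0, -0.42 and 0.63 in the respective panels, with SPIRE1 and PIEZO2 apart, and the 5 listed 18q genes sit nearer to 0 in the top and bottom panels.

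**Figure D4:**
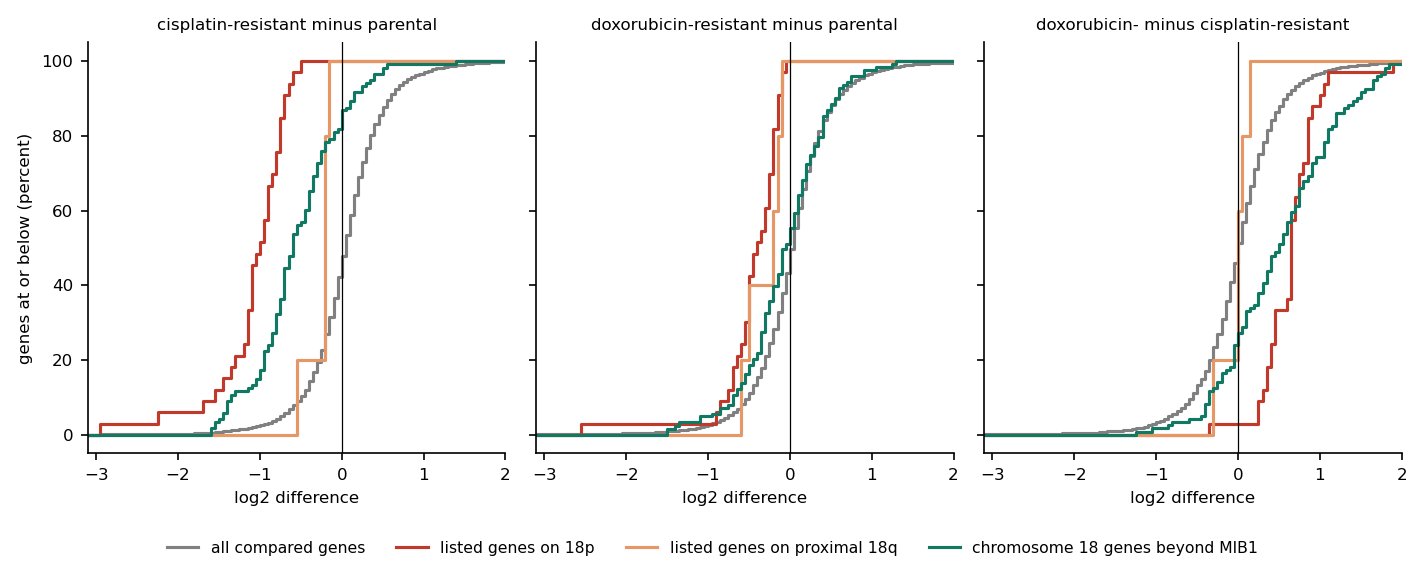
Percentage of genes at or below each log2 difference, for all compared genes, the listed genes on 18p, those on proximal 18q and the chromosome 18 genes beyond MIB1, in the 3 comparisons. In the left panel the 18p curve lies left of the others (median -1.0), the curve beyond MIB1 is broader (median -0.64), and the all-gene curve crosses the middle near 0.02.

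Across the 23 chromosomes with compared genes, chromosome 18 had the lowest median in the CisR array, -0.72 over 175 genes, and the X chromosome followed at -0.36. In the DoxR array the lowest was X at -0.37, and chromosome 18 stood at -0.18. Between the sublines chromosome 18 had the highest median (0.55). The median of the listed 18p genes was below the chromosome's median in the comparisons with parental (-1.0 and -0.42) and above it between the sublines (0.63).

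**Figure D5:**
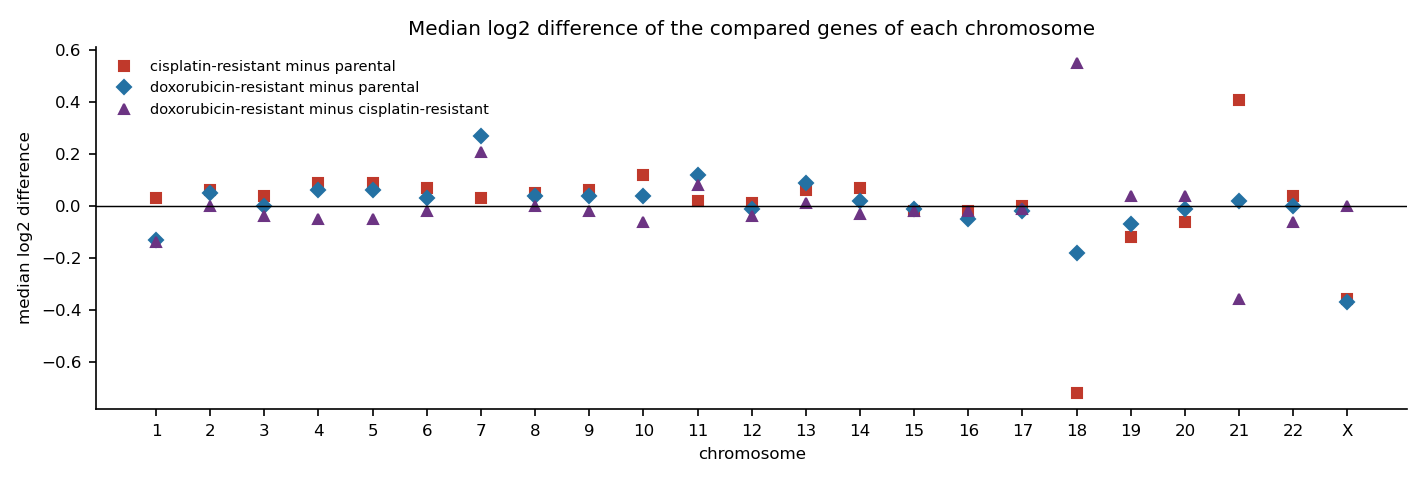
Median log2 difference of the compared genes of each chromosome, 1 symbol for each of the 3 comparisons. Chromosome 18 stands at -0.72 in the cisplatin-resistant array (square), at -0.18 in the doxorubicin-resistant array (diamond) and at 0.55 between the sublines (triangle).

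Proteins that work with the listed genes, and their paralogs, were read from lists of genes that lie mostly on other chromosomes. Of the 85 compared in the CisR array, 34 were below parental, 1 was lower and 1 higher by 2-fold, and the median was 0.04. The cohesin subunit SMC1A was the lower one, at 7716, 2939 and 6256 on the MHCC97Low, CisR and DoxR arrays, although its other probe set gave -0.31. The folate enzyme SHMT1, which feeds thymidylate synthesis, was the higher one, at 151, 449 and 155. Of the 86 compared in the DoxR array, 44 were below parental, 2 were lower by 2-fold and none was higher, and the median was -0.02. Those were the formin FMN2, a partner of SPIRE proteins that was at least 6.99-fold lower, and the NDC80 complex subunit SPC24, whose probe sets differed in sign (-1.10 and 0.37).

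Partners and paralogs of single genes were also set beside their listed gene. In the CisR array NUF2 and SPC25, bound to NDC80 in one complex, stood at 0.31 and 0.26, beside -0.85 for NDC80. The third partner SPC24 stood at -0.55, but its other probe set gave 0.15. The thymidylate and nucleotide synthesis genes had a median of 0.01 over 8 genes, beside -0.72 for TYMS. The NUP107 complex had a median of -0.02 over 7 genes, beside -1.19 for SEH1L, and the THO complex one of 0.08 over 5 genes, beside -1.18 for THOC1. Among paralogs, LPIN1 stood at 0.53 (LPIN2 at -1.37), PIEZO1 at 0.52 (PIEZO2 at -2.29, a bound), SPIRE2 at 0.02 (SPIRE1 at -2.96) and VAPB at 0.04 (VAPA at -0.80). Others were below parental with their listed gene. PSMG1, which pairs with PSMG2 in proteasome assembly, stood at -0.82 (PSMG2 at -0.97). The NAPG paralog NAPA stood at -0.59 (NAPG at -0.92) and ALYREF, the export adaptor that works with the THO complex, at -0.45. The formin FMN1, of the family that works with SPIRE1, stood at -0.68, but its other probe set gave 0.27. In the DoxR array the same paralogs stood at 0.03 for LPIN1, 0.19 for PIEZO1, 0.11 for SPIRE2, 0.24 for VAPB and 0.13 for NAPA. There PSMG1 stood at -0.60, ALYREF at -0.42 and FMN1 at -0.75, with 0.48 for the other FMN1 probe set. The NDC80 partners had a DoxR median of -0.37 over 3 genes, lower than NDC80 itself (-0.21). The NUP107 complex had -0.23, beside -0.36 for SEH1L, and the THO complex -0.06, beside -0.51 for THOC1. For thymidylate and nucleotide synthesis the DoxR median was 0.08, beside -0.10 for TYMS.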

How the data were processed

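The deposited values are 1 linear intensity (signal) per probe set and array, from MAS5 as the submitters' processing notes name it, with no version given in the sources used here. MAS5 subtracts mismatch signal, which makes low values noisy, and each array is scaled to 1 common level, which assumes similar total signal. Gene symbols came from the platform's annotation and were updated by Entrez identifier in a RefSeq table (GRCh38.p14), which also set gene order. Of 54675 probe sets, 41097 carried 1 symbol (41025 matched the table), 1801 carried several, 11715 are not named here and 62 were controls. Only the 1-symbol sets were used, apart from the set shared by MYL12A and MYL12B.

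The floor was the overall median signal (76.9); lower values were set to it, and log2 followed. Each gene was read from the probe set whose mean log2 signal was highest, compared where at least 1 of both values was above the floor, and called at 2-fold. A fold against a value under the floor is a bound and is written "at least". With 1 array per group no p-value or SD between samples was computed. Genes named with all signals were those past 2-fold in either subline, those more than 2-fold from the list's median, the 4 nearest to parental, USP14, MIB1, TYMS, genes whose probe sets disagreed in sign, and a few more for their role (such as NDC80, YES1 and PSMG2), which were picked with their values in view. Values of 1 compared gene of proximal 18q are not reported here, and it counts only in the totals. The listed genes and all other lists were chosen with earlier results of these data known. Alternatives were other floors, filters, probe set choices, scalings and fold thresholds. The scripts (Python 3.11.15, numpy 2.4.6, pandas 2.3.3) were tested on simulated data.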

Additional observations from a re-analysis of the deposited data

Results flagged for a closer look

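FMN2, a formin that works with SPIRE1, differed from parental with opposite signs in the sublines, with a log2 difference of 0.27 in CisR, which is short of 2-fold, and -2.80 in DoxR. Its signal was 537 on the parental, 648 on the cisplatin-resistant and 1.77 on the doxorubicin-resistant array, where it lay under the floor, so it was at least 6.99-fold lower there. The other FMN2 probe set gave 0.03 and -2.08. With 1 array for each subline the difference was not tested.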

How the results depend on the processing

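The 9 summary results of the listed genes (medians, counts below parental, counts past 2-fold and counts far from the median) were recomputed under up to 12 alternatives each, and 95 of the 103 values obtained kept their size, with none reversed. The median ran from -1.0 to -0.85 in the cisplatin-resistant array, from -0.47 to -0.30 in the doxorubicin-resistant array and from 0.41 to 0.63 between them. The 17 genes lower by 2-fold in the cisplatin-resistant array became 33 at 1.5-fold and 13 to 20 under the other settings. The 1 gene so called in the doxorubicin-resistant array became 2 with the floor at the 25th percentile (19.4), 2 with the median over all probe sets and 10 at 1.5-fold. The 2 genes more than 2-fold from the median in the cisplatin-resistant array became 5 with the floor at the 25th percentile, 0 with the floor at the 75th percentile (439.7), where fewer low values keep their size, and 1 where both values had to be above the floor, which removes PIEZO2. In the doxorubicin-resistant array 1 became 3 with the floor at the 25th percentile. Among values of single genes, 1096 of 1118 kept their side of 2-fold and their sign and 22 did not, with no called gene reversed. SPIRE1 ran from -2.99 to -1.39 and from -2.71 to -1.39 in the respective sublines, past 2-fold under every alternative, with -1.39 at the highest floor. VAPA went from -0.19 to 0.11 in the doxorubicin-resistant array without the less specific probe sets. The choice of the probe set with the highest linear mean and the 18p genes taken alone were added after seeing the data. No paired analysis was possible because each group has 1 array and the labels give no replicate numbers, and no array could be left out for the same reason. Low signal limits what can be said of RAB31, LDLRAD4, TUBB6 and PIEZO2, and RNA alone was measured.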
